A study of Mus musculus with 8 samples.

Results

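The interleukin 1 (IL-1) ligands and receptors examined here are 7 genes: the agonists Il1a and Il1b, the antagonist Il1rn, the signalling receptor Il1r1 with its partner Il1rap, the decoy receptor Il1r2, and the IL-33 receptor Il1rl1. They were taken by gene name from a count table of 54532 genes, where each name matched a single row. They were read in neutrophils sorted from mammary tumours of Balb/c mice, which had been grown in the mammary fat pad from 2208L, a mouse mammary tumour line, to a diameter of 1 cm. The groups were an ICAM1high and an ICAM1low fraction of untreated tumour neutrophils, separated by flow cytometry on ICAM1 (CD54, an adhesion molecule), with 4 biological replicates each. The sources used here give no age, sex or genotype, nor the gate that defined a neutrophil. Nothing says that each replicate came from its own mouse, or whether mice were pooled, so p-values measure the spread between these samples.

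IL-1 alpha and IL-1 beta are inflammatory cytokines that bind the same receptor, IL1R1, which signals through MYD88 and IRAK kinases to NF-kB once the accessory chain IL1RAP has joined. The antagonist IL1RN occupies IL1R1 without signalling, and the decoy IL1R2, abundant on neutrophils, captures IL-1 without passing a signal on. IL-1 beta is made as a precursor that an inflammasome with caspase-1 cleaves, so transcript counts say nothing of how much active cytokine was released.

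Libraries held 10328575 to 22751975 counts. The sorted marker Icam1 was higher in ICAM1high, at 1459 ± 202 against 848 ± 214 CPM in ICAM1low (SD, n = 4). Summed neutrophil markers ran from 8280 to 11236 CPM in ICAM1high and from 37331 to 75458 CPM in ICAM1low, and 12 of 12 were lower in ICAM1high. Summed macrophage and monocyte markers ran from 10197 to 17172 CPM in ICAM1high and from 1194 to 1866 CPM in ICAM1low, and 11 of 12 were higher in ICAM1high. ICAM1high libraries thus held transcripts known from both cell types, and the part of this in the values below was not tested. In such bulk samples, fewer cells of a type and less RNA per cell cannot be told apart. On the second principal component, replicate 1 of ICAM1high and replicate 4 of ICAM1low were the outlying libraries of their groups.

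Across the 7 genes, 5 were lower in ICAM1high and 0 were higher at an adjusted p under 0.05 in edgeR's quasi-likelihood test, with 2 that did not pass. All 7 had passed the filter on low counts. With a block of same-numbered libraries Il1rl1 did not pass, and the calls on the other genes were unchanged. Over all 14051 genes tested 42.1% passed in either direction, 19.6% as lower and 22.6% as higher in ICAM1high. The median of the log2 fold changes (ICAM1high over ICAM1low) was -1.41 over the 7 genes and 0.08 over all genes. These values use CPM (counts relative to library size) scaled by TMM, which sets the bulk of genes level between libraries. Scaling by library totals alone moved the median of all genes to 0.76, a shift of 0.68. On that scale 3 of the 7 were lower and 1 was higher, where 5.97% of all genes were lower and 48.5% higher.

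**Figure D1:**
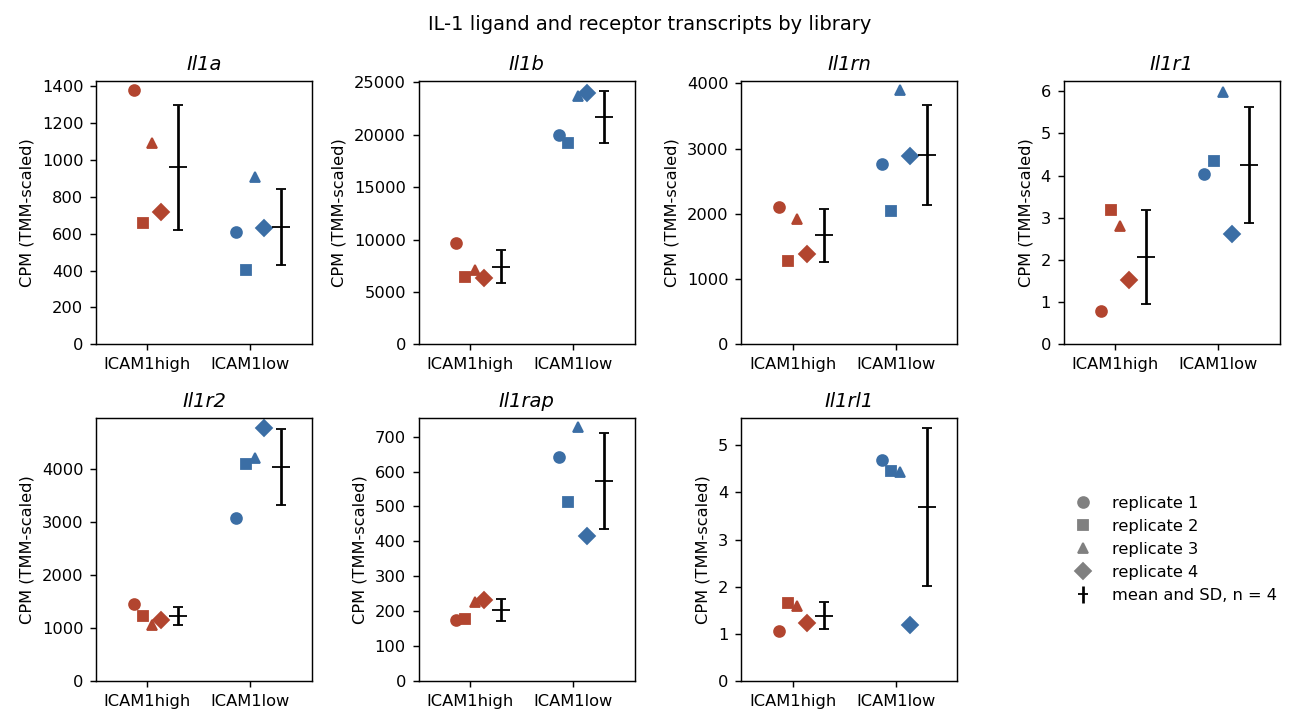
TMM-scaled CPM (vertical axes, each from 0) of the 7 genes in each of the 8 libraries, ICAM1high in red and ICAM1low in blue. Circle, square, triangle and diamond mark replicates 1 to 4, and bars give the mean and SD (n = 4). The fractions do not overlap for Il1b, Il1r2 and Il1rap, whereas the ICAM1low library at 1.19 CPM of Il1rl1 sits among the ICAM1high values.

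Il1b was among the most abundant transcripts of both fractions and was lower in ICAM1high. It measured 9692, 6408, 7104 and 6344.5 CPM in ICAM1high replicates 1 to 4, against 19941, 19173, 23728 and 23991 CPM in ICAM1low. Every ICAM1high library lay below every ICAM1low library, as was so for 41.5% of all genes in either direction. The means were 7387 ± 1575 and 21708 ± 2506 CPM (SD, n = 4), 2.94-fold lower in ICAM1high. On the log2 scale this was -1.56 with an SE of 0.19 (adjusted p = 0.000142 in edgeR). The separate ranges fix the direction in 4 of 4 same-numbered pairs. Under library totals the log2 fold change was -0.87 (SE 0.14, adjusted p = 0.000467). In spite of this difference Il1b held a rank between 3 and 5 of all genes by TPM (a level per transcript length) in each of the 8 libraries. It took 0.930 ± 0.149% of all counts in ICAM1high and 1.70 ± 0.0981% in ICAM1low (SD, n = 4).

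Il1a, which encodes the other agonist, was not lower in ICAM1high. Its level was 1381, 656, 1091 and 719 CPM in ICAM1high replicates 1 to 4, and 609, 402, 906 and 631 CPM in ICAM1low. The fractions overlapped on this TMM scale, although ICAM1high was the higher member of all 4 same-numbered pairs. As a share of all counts they did not overlap, at 0.0878 to 0.163% in ICAM1high and 0.0347 to 0.0704% in ICAM1low. With means of 962 ± 339 and 637 ± 207 CPM (SD, n = 4), the log2 fold change of 0.59 (SE 0.29, adjusted p = 0.124 in edgeR) did not pass. Under library totals it was 1.28 (SE 0.26, adjusted p = 0.00201) and did pass, so the call on Il1a depends on the scaling. Without ICAM1high replicate 1, the highest library, it was 0.34 (adjusted p = 0.348 in edgeR with TMM). In replicates 1 and 2 alone the log2 fold change was 1.01, and in replicates 3 and 4 alone 0.20, with adjusted p of 0.0862 and 0.654 (edgeR); the difference between these library-number runs did not pass (0.77, adjusted p = 0.527 in edgeR).

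The balance between these agonists can be read within a library, where scaling cancels. Per length, Il1b stood 7.27, 10.1, 6.74 and 9.13 times above Il1a in ICAM1high replicates 1 to 4, against 33.9, 49.4, 27.1 and 39.3 times in ICAM1low. No ICAM1high library reached the lowest ICAM1low value. With the mean length of protein-coding transcripts in place of the deposited gene length, the ratio was 9.48 to 14.2 in ICAM1high and 38.1 to 69.4 in ICAM1low. The log2 ratio of Il1a to Il1b averaged -3.04 ± 0.27 in ICAM1high and -5.19 ± 0.36 in ICAM1low (SD, n = 4), a difference of 2.16. The exact two-sided permutation p was 0.0286, the smallest that 4 against 4 allows, and 0.0571 when adjusted over the 4 ratios computed, which does not pass.

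Il1a and Il1b lie on the minus strand of mm10 chromosome 2, Il1a (ENSMUSG00000027399) at 129299610 to 129309972 and Il1b (ENSMUSG00000027398) at 129364570 to 129371139, with 54.6 kb between them. The 250 bases before each RefSeq start (GRCm38.p6) are printed because the ratio of these neighbouring agonist genes had the widest difference of the 4 computed, at chr2:129309973-129310222 for Il1a and chr2:129371140-129371389 for Il1b, 5′ to 3′ on the minus strand.
Il1a: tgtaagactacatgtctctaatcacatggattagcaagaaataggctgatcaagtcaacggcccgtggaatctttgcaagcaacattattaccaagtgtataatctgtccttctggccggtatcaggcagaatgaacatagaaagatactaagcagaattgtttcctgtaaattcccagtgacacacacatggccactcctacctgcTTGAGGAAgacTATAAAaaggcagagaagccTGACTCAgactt
Il1b: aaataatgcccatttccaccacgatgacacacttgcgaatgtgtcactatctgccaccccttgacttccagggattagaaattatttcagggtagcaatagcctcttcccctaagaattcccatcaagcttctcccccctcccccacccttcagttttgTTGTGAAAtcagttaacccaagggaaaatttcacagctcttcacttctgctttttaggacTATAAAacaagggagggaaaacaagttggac
Capitals mark letters that match a motif searched on both strands. The TATA box letters TATAAA occur in both windows, 32 bases before the start of Il1a and 31 bases before that of Il1b, and in 12.4% of 32817 promoter windows of the same length. The C/EBP letters TTNCNNAA occur once in each, beginning 43 bases before the start of Il1a and 91 bases before that of Il1b, and in 36.8% of all windows. Il1a alone of the pair has the AP-1 letters TGANTCA, 12 bases before its start and in 6.75% of all windows, and the PU.1 letters GAGGAA, which overlap its C/EBP match and occur in 23.3%. The NF-kB letters (GGG, then NNNNN, then CC), present in 45.8% of all windows, are in neither. These matches describe letters and say nothing of binding.

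Il1rn, the antagonist, was lower in ICAM1high on the TMM scale and did not pass under library totals. It measured 2111, 1273.5, 1922 and 1378 CPM in ICAM1high replicates 1 to 4, against 2765, 2044, 3905 and 2884 CPM in ICAM1low. The fractions overlapped by 1 library on each side, the highest ICAM1high value lying just above the lowest ICAM1low value. The log2 fold change was -0.80 (SE 0.23, adjusted p = 0.0197 in edgeR), lower in 4 of 4 pairs. Under library totals it was -0.11 (SE 0.20, adjusted p = 0.669), and without ICAM1high replicate 2, ICAM1high replicate 4 or ICAM1low replicate 3 the adjusted p was 0.0602, 0.0535 and 0.0646 (edgeR). In replicates 1 and 2 alone it was -0.51 (adjusted p = 0.302) and in replicates 3 and 4 alone -1.08 (adjusted p = 0.0412, edgeR).

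The antagonist can likewise be set against IL-1 beta within a library. Per length, Il1b was 13.3, 14.6, 10.7 and 13.4 times Il1rn in ICAM1high replicates 1 to 4, against 20.9, 27.2, 17.6 and 24.2 times in ICAM1low. With the mean length of protein-coding transcripts in place of the deposited length, the ratio was 3.75 to 5.11 in ICAM1high and 6.17 to 9.53 in ICAM1low, so its size depends on the length used, whereas the log2 difference between the fractions does not. The log2 ratio of Il1rn to Il1b was -3.69 ± 0.19 in ICAM1high and -4.47 ± 0.27 in ICAM1low (SD, n = 4). The fractions did not overlap, and the difference of 0.78 had an exact two-sided permutation p of 0.0286, which at 0.0571 did not pass once adjusted over the 4 ratios. Il1rn (ENSMUSG00000026981) lies on chromosome 2 at 24336853 to 24351494, and counts per gene do not separate its secreted form from its intracellular forms.

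**Figure D2:**
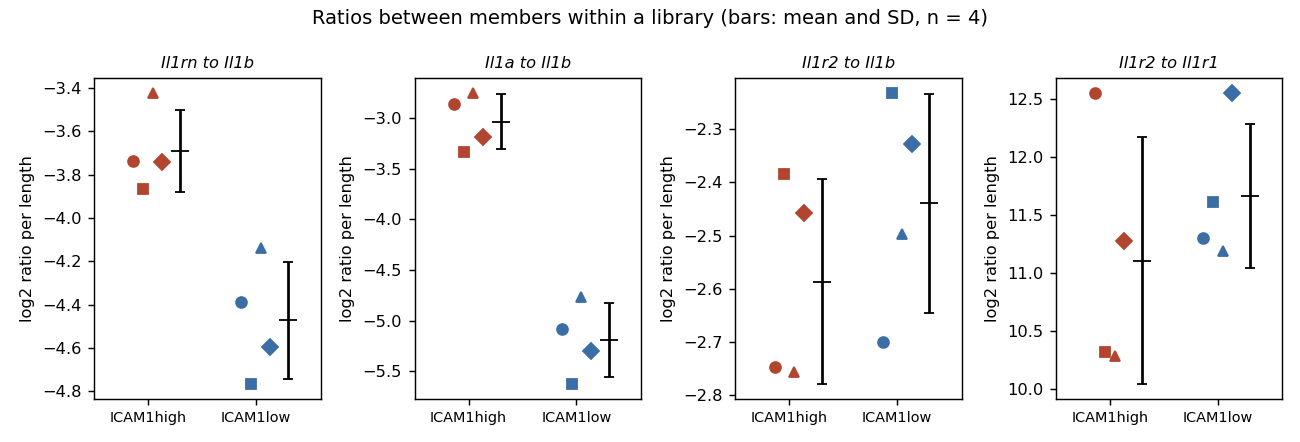
Log2 ratios of length-scaled counts (vertical axes) between pairs of genes in each library, ICAM1high in red left of ICAM1low in blue, with symbols for replicates 1 to 4 (circle, square, triangle, diamond) and bars for mean and SD (n = 4). The ratios of Il1rn and Il1a to Il1b do not overlap between the fractions, whereas those of Il1r2 to Il1b and to Il1r1 do.

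Il1r2, the decoy receptor, had a larger fold change than any of the other 6 genes with all libraries on the TMM scale. That order changed in replicates 1 and 2 alone, with -1.42 for Il1r2, -1.74 for Il1rl1 and -1.72 for Il1rap. The CPM of Il1r2 was 1445, 1228, 1052 and 1155 in ICAM1high replicates 1 to 4, and 3071, 4085, 4210 and 4780 in ICAM1low. The fractions did not overlap, the highest ICAM1high library lying far below the lowest ICAM1low library. The means of 1220 ± 166 and 4036 ± 711 CPM (SD, n = 4) gave a 3.31-fold lower level in ICAM1high. The log2 fold change was -1.73 with an SE of 0.18 (adjusted p = 6.32e-05 in edgeR). It was lower in 4 of 4 same-numbered pairs, which the separate ranges fix in advance. Under library totals it was -1.04 (SE 0.15, adjusted p = 0.000293). Per length, Il1b was 6.71, 5.22, 6.75 and 5.50 times Il1r2 in ICAM1high replicates 1 to 4, against 6.50, 4.70, 5.64 and 5.02 times in ICAM1low. With the mean length of protein-coding transcripts it was 3.26 to 4.22 times in ICAM1high and 2.94 to 4.06 times in ICAM1low. Those ranges overlap, and the difference in the log2 ratio of Il1r2 to Il1b was -0.15 (exact permutation p = 0.286, adjusted 0.381 over the 4 ratios), from -2.59 ± 0.19 in ICAM1high and -2.44 ± 0.21 in ICAM1low (SD, n = 4). Il1r2 (ENSMUSG00000026073) spans 40074079 to 40125231 of chromosome 1.

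Il1r1, which encodes the signalling receptor, was close to the lower limit of what these libraries measured. It had 19, 75, 58 and 20 counts in ICAM1high replicates 1 to 4, and 55, 71, 104 and 42 counts in ICAM1low. These counts correspond to 0.782, 3.19, 2.80 and 1.53 CPM in ICAM1high and to 4.04, 4.34, 5.98 and 2.62 CPM in ICAM1low. ICAM1high replicates 2 and 3 lay above the lowest ICAM1low library, so the fractions overlapped, and the log2 fold change of -1.03 (SE 0.45, adjusted p = 0.0872 in edgeR) did not pass, although it was negative in 4 of 4 pairs. DESeq2 gave -1.09 with an adjusted p of 0.0451, and edgeR without ICAM1high replicate 1 and ICAM1low replicate 4 gave -0.94 with an adjusted p of 0.0356, whereas library totals gave -0.33 (adjusted p = 0.576). Without ICAM1low replicate 4 alone the adjusted p was 0.0465 (edgeR). Per length, decoy transcript exceeded signalling-receptor transcript 6009, 1274, 1243 and 2464 times in ICAM1high, and 2515, 3116, 2336 and 6010 times in ICAM1low. With the mean length of protein-coding transcripts it was 2340 to 11311 times in ICAM1high and 4397 to 11314 times in ICAM1low. The log2 ratio of Il1r2 to Il1r1 differed by -0.56 (exact permutation p = 0.429, adjusted 0.429 over the 4 ratios), with 11.1 ± 1.07 in ICAM1high and 11.7 ± 0.62 in ICAM1low (SD, n = 4). It was -1.04, -0.29 and -0.28 without ICAM1high replicate 1, 2 or 3, and -0.26 without ICAM1low replicate 4. Il1r1 (ENSMUSG00000026072) lies downstream of Il1r2 on chromosome 1, at 40225080 to 40317257.

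Il1rap, the shared accessory chain of the IL-1, IL-33 and IL-36 receptors, was lower in ICAM1high. It measured 174, 178, 227 and 232 CPM in ICAM1high replicates 1 to 4, against 642, 513, 727 and 415 CPM in ICAM1low. On TMM-scaled CPM the ranges did not overlap, which fixes the direction in 4 of 4 same-numbered pairs. As a share of all counts they did overlap, with ICAM1high replicate 4 at 0.0294% and ICAM1low replicate 4 at 0.02925%. The mean CPM was 203 ± 30.9 in ICAM1high and 574 ± 138 in ICAM1low (SD, n = 4). The log2 fold change was -1.50 (SE 0.20, adjusted p = 0.000302 in edgeR). Under library totals it was -0.82 (SE 0.22, adjusted p = 0.00837). Il1rap (ENSMUSG00000022514) lies on chromosome 16 at 26581704 to 26730117, and its membrane and soluble forms are counted together.

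Il1rl1, the receptor for IL-33 and known as ST2, was scarce, like Il1r1. ICAM1high replicates 1 to 4 had 26, 39, 33 and 16 counts (1.07, 1.66, 1.59 and 1.22 CPM), and ICAM1low replicates had 64, 73, 77 and 19 counts (4.70, 4.46, 4.43 and 1.19 CPM). Of the ICAM1low libraries, 3 lay above every ICAM1high library and replicate 4 lay within the ICAM1high range. The log2 fold change was -1.41 (SE 0.44, adjusted p = 0.0254 in edgeR), lower in 3 of 4 pairs. Without ICAM1high replicate 4, or ICAM1low replicate 1, 2 or 3, it was -1.37, -1.27, -1.30 and -1.31 but no longer passed (adjusted p of 0.0580, 0.0612, 0.0651 and 0.0646, edgeR). Under library totals it was -0.75 (adjusted p = 0.203), with limma-voom -1.22 (adjusted p = 0.0725), and in replicates 3 and 4 alone -1.02 (adjusted p = 0.348). A block of same-numbered libraries gave -1.29 (adjusted p = 0.0752, edgeR), which did not pass either. For other cells known for Il1rl1, summed mast cell and basophil markers ran from 3.74 to 10.2 CPM in ICAM1high and from 8.69 to 12.7 CPM in ICAM1low, mostly from Kit. Fcer1a, the IgE receptor chain of those cells, was at 0 counts in all 8 libraries, as were Il5 and Il13 of the list for group 2 innate lymphoid cells, whose sum was 26.9 to 35.2 CPM in ICAM1high and 23.6 to 66.0 CPM in ICAM1low. The latter sum came mostly from Areg (-1.83 on the log2 scale) and Il7r (4.83), which moved in opposite directions. The part of such cells in the Il1rl1 values was not tested. Il1rl1 (ENSMUSG00000026069) is on chromosome 1 at 40429570 to 40465415.

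**Figure D3:**
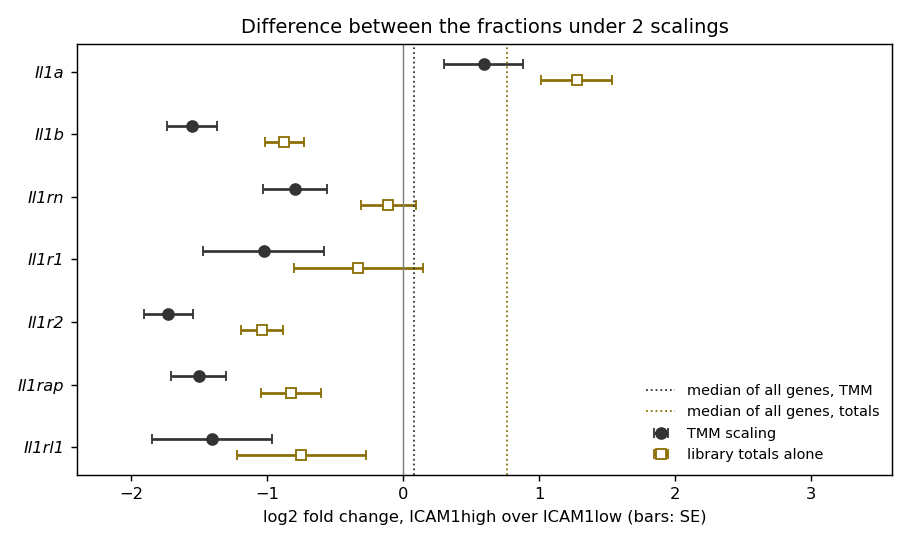
Log2 fold change, ICAM1high over ICAM1low (horizontal axis), of the 7 genes with its standard error (bars), under TMM scaling (filled circles) and under library totals alone (open squares). Dotted lines mark the median of all genes tested under each scaling, 0.08 and 0.76. Il1a lies to the right of 0 under both scalings and the other 6 genes to the left.

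By TPM the ranges of the genes formed 4 separate groups in ICAM1high and 5 in ICAM1low. Il1b came first with 12935 to 14914 TPM in ICAM1high and 18657 to 25232 TPM in ICAM1low, clear of the next gene. Il1r2 came second with 2181 to 2580 TPM in ICAM1high and 3715 to 4789 TPM in ICAM1low, clear of the next gene in ICAM1low alone. In ICAM1high Il1a followed with 1332 to 2185 TPM, overlapping Il1r2 above it and Il1rn below it, which had 922 to 1373 TPM. In ICAM1low the order of those neighbours was turned, with Il1rn at 773 to 1431 TPM above Il1a at 456 to 931 TPM in all 4 libraries, although their ranges overlapped. Il1rap was clear of its neighbours at 44.8 to 79.3 TPM in ICAM1high and 54.2 to 134 TPM in ICAM1low. Il1r1, at 0.360 to 2.01 TPM in ICAM1high and 0.611 to 1.91 TPM in ICAM1low, could not be separated from Il1rl1, at 0.455 to 0.965 TPM and 0.255 to 1.62 TPM in the same fractions. The deposited length of a gene is the union of its annotated exons, which is long for Il1rn (5535 bases) beside its 4 protein-coding transcripts (321 to 2474 bases). With the mean length of protein-coding transcripts, Il1rn was at 3706 to 5516 in ICAM1high and 3105 to 5750 in ICAM1low, above Il1a in both fractions, and Il1r2 was at 4905 to 5803 and 8356 to 10772 in the same fractions. Il1rn then overlapped Il1r2 in ICAM1high, so its place relative to both Il1a and Il1r2 depends on the length used.

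**Figure D4:**
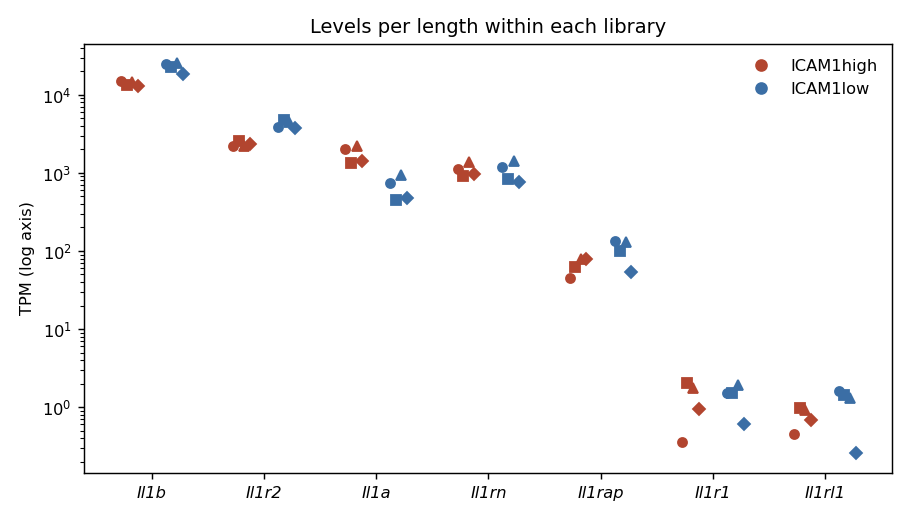
TPM (vertical log axis) of the 7 genes in each library, in the order of their means in ICAM1high, with ICAM1high in red left of ICAM1low in blue and symbols for replicates 1 to 4 (circle, square, triangle, diamond). Il1b lies at 12935 TPM or above in all libraries, while Il1r1 and Il1rl1 stay near or below 2.01 TPM.

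The profile of each gene over the 8 libraries was set against protein-coding genes of at least 3 log2 CPM on average (7697 genes, or 7698 for Il1r1 and Il1rl1), using the root mean square difference between log2 CPM values centred on their own means. Il1b was closest to Rab7, Ddit3 and Tspan13, at differences of 0.07, 0.07 and 0.08. Il1r2 was closest to Cd14, Xbp1 and Basp1 at 0.10, 0.12 and 0.12, and Il1rap to Kbtbd7, Slc22a15 and Jaml at 0.09, 0.11 and 0.11. Among the 7 genes themselves the closest pair was Il1b and Il1r2 at 0.19, and the farthest pair was Il1a and Il1r2 at 1.23. Il1a was closest to Il23a, a subunit of IL-23, at 0.21, then to Tapbpl and Rnf215 at 0.24 and 0.25, and Il1rn to Irgm1, Cdc42ep3 and H2-Q4 at 0.17, 0.18 and 0.19. For the scarce receptors the nearest genes were Ptprz1, Met and Nr4a3 for Il1r1 at 0.19, 0.26 and 0.28, and Amotl1, Ptk7 and Ntn1 for Il1rl1 at 0.20, 0.23 and 0.23, which rest on few counts.

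Of 22 genes listed for the IL-1 receptor signalling chain, 7 were lower in ICAM1high, 1 was higher and 14 did not pass. Their median on the log2 scale was -0.16. The list mixes carriers of the signal with its inhibitors, and of the latter Irak3, Tollip and Tnip2 were among the lower genes. Over all genes 19.6% were lower and 22.6% higher, and 42.1% passed in either direction. The kinase Irak2 had 484 ± 35.2 CPM in ICAM1high and 980 ± 134 CPM in ICAM1low (SD, n = 4), which is -1.02 on the log2 scale (SE 0.15, adjusted p = 0.000515 in edgeR). The adaptor Myd88 changed by -1.08 (adjusted p = 0.00169) and the ubiquitin-conjugating enzyme Ube2n by -0.81 (adjusted p = 0.00392). Irak1 was the gene that was higher, at 0.65 (adjusted p = 0.0321, edgeR). Traf6, the ubiquitin ligase downstream of the IRAK kinases, was at -0.06 (adjusted p = 0.772, edgeR), a gene chosen with its value known. Under library totals 9 of these genes were higher and 0 lower, where 48.5% of all genes were higher and 5.97% lower, and the median of the list was 0.53. Irak2 and Myd88 were at -0.33 and -0.39 with adjusted p of 0.0755 and 0.0636 on that scale (edgeR), so no lower call of this list held under library totals.

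Genes that process or release IL-1 moved in both directions. Of 17 tested from 19 listed, 6 were higher in ICAM1high, 8 were lower and 3 did not pass, where 22.6% of all genes were higher and 19.6% lower. The median was -0.35, and 0.31 under library totals. The calpain Capn2, a protease of the family that cleaves the IL-1 alpha precursor, was at 28.3 ± 3.47 CPM in ICAM1high and 12.6 ± 0.672 CPM in ICAM1low, whereas Capn1 was at 127 ± 11.1 and 293 ± 38.4 CPM in the same fractions (SD, n = 4). On the log2 scale Capn2 was at 1.17 (adjusted p = 0.000326) and Capn1 at -1.21 (adjusted p = 0.000169 in edgeR). Nlrc4, which encodes an inflammasome component, was higher by 2.98 (adjusted p = 0.000378, edgeR). Of the inflammasome genes picked after their values were seen, Nlrp3 was at -1.06 (adjusted p = 0.00656), Casp1 at -0.70 (adjusted p = 0.0296) and the adaptor Pycard at 1.76 (adjusted p = 0.00829, edgeR). Under library totals 8 genes were higher and 2 lower (48.5% and 5.97% of all genes), with Nlrp3 at -0.38 and Casp1 at 0.00, neither past the threshold, and Capn1 at -0.52, Capn2 at 1.85 and Pycard at 2.48, which passed. Nlrp1b at -0.35, Casp8 at -0.15 and Aim2 at -0.03 did not pass on the TMM scale.

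Other members of the IL-1 family were measured less often. Il1f9, which encodes IL-36 gamma and lies upstream of Il1rn on chromosome 2 at 24186476 to 24193568, was at 236 ± 61.3 CPM in ICAM1high and 982 ± 220 CPM in ICAM1low (SD, n = 4), which is -2.06 on the log2 scale (SE 0.24, adjusted p = 0.000134 in edgeR). Il18, the caspase-1 substrate, changed by -1.77 (adjusted p = 0.00083), and its inhibitor Il18bp was at -0.02 (adjusted p = 0.972, edgeR). These were the 3 genes tested from the list of other ligands, in which Il18bp was included although it is not a ligand. The gene of the IL-33 ligand, Il33, had 0 to 12 counts per library. Of 4 further receptor genes tested, 2 were lower, where 19.6% of all genes were lower and 22.6% higher. They were Il18rap at -1.94 (adjusted p = 0.000245) and Il18r1 at -1.81 (adjusted p = 0.000258, edgeR). These genes encode the chains of the IL-18 receptor and lie next to Il1rl1 on chromosome 1. Il1rl2, the IL-36 receptor, was at 0.66 (adjusted p = 0.0706) and Sigirr, an inhibitory receptor also listed in the signalling chain, at 0.60 (adjusted p = 0.344, edgeR). Under library totals Il1f9, Il18, Il18rap and Il18r1 remained lower, and Il1rl2 and Sigirr were called higher. On that scale 5.97% of all genes were lower and 48.5% higher.

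Of 26 genes known to respond to IL-1, 23 were tested: 4 were higher in ICAM1high, 9 were lower and 10 did not pass, where 22.6% of all genes were higher and 19.6% lower. Under library totals 7 were higher and 4 lower, where 48.5% and 5.97% of all genes were. The median was -0.28, and 0.39 under library totals. The chemokine Cxcl3 changed by -2.99 (SE 0.23, adjusted p = 9.28e-06), while the adhesion molecule Vcam1 at 4.28 and the collagenase Mmp13 at 3.28 were higher (adjusted p = 1.28e-06 and 6.27e-05, edgeR). The other higher genes were Icam1, on which the cells were sorted, and the chemokine Ccl2. Without ICAM1high replicate 1 and ICAM1low replicate 4 there were 6 higher and 9 lower, where 3586 of all 14050 genes tested were higher and 3441 lower. Macrophage markers were higher and neutrophil markers lower in the same ICAM1high libraries, and their part in these counts was not tested.

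**Figure D5:**
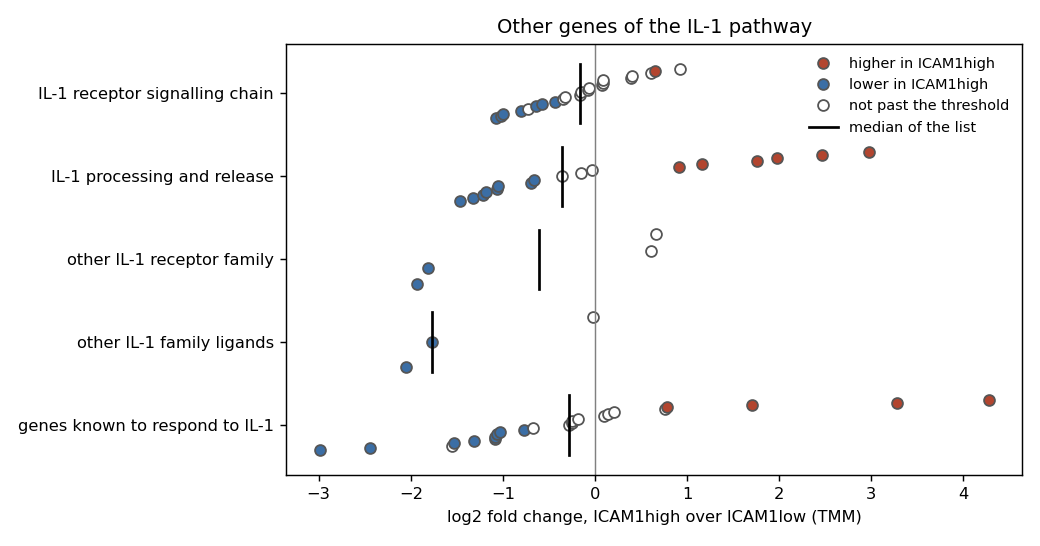
Log2 fold change, ICAM1high over ICAM1low on the TMM scale (horizontal axis), of each tested gene of 5 pathway lists (rows), red where higher in ICAM1high, blue where lower and white where the test was not passed, with the median of each list as a vertical bar. The medians are -0.16 for the signalling chain, -0.35 for processing and release, -0.60 for other receptors, -1.77 for other ligands and -0.28 for genes known to respond to IL-1, and 4 of these 5 turn positive under library totals (0.53, 0.31, 0.06 and 0.39), while other ligands stay at -1.09.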

How the data were processed

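RNA of 8 libraries of tumour neutrophils (100 ng each) was sequenced. The authors deposited raw read counts per gene, and, as an other quantity, the gene length in bases, which the deposited table gives. The submitters' processing notes name HISAT2 and mm10, while counting tool, annotation and strand setting are not given there. GENCODE M21 held 99.9% of the gene IDs, and the length equalled the union of exons for 98.0% of these. Totals of 10328575 to 22751975 counts limit the precision of Il1r1 and Il1rl1.

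Analyses used R 4.3.3. Genes were filtered with filterByExpr, scaled by TMM and tested with edgeR 4.0.16 (quasi-likelihood F test, unpaired), with Benjamini-Hochberg adjustment over 14051 genes and a threshold of 0.05. SE was obtained as the absolute log2 fold change over the root of the F statistic. Profiles used log2 CPM with a prior count of 2. TPM used the deposited length. Ratios had 0.5 added to each count and exact two-sided permutation tests, adjusted over 4 ratios. The script was tested on simulated data.

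The labels give both fractions replicates 1 to 4 and the same library numbers, but state no pairing. Deviations of same-numbered libraries correlated at -0.566, 0.21, 0.184 and -0.3. These correlations over all genes cannot exclude that same-numbered libraries share a source. The main test was unpaired, and a block of same-numbered libraries was run as an alternative.

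Members, the 5 pathway lists and the 11 marker lists were chosen with earlier results of these data known. Named genes were the 7 members, Icam1, up to 3 genes per list with the smallest p and an average log2 CPM of at least 1, members of counts of 5 or fewer, and the 3 genes with the most similar profile. Alternatives were DESeq2 1.42.0, limma-voom (limma 3.58.1), other scalings and filters, libraries left out, a replicate block, robust dispersion and library-number runs. The run interaction, levels and ratios by transcript length and list counts under alternatives were added after the data were seen.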

Additional observations from a re-analysis of the deposited data

Results flagged for a closer look

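Il1rl1 in ICAM1low replicate 4, at 1.19 CPM (19 counts), stood far below the other ICAM1low libraries, whose values were 4.43 to 4.70 CPM. Its gap to the nearest of them was 0.924 of the whole range, above the critical value of 0.829 for 4 samples. It was the 1 flag among 22 groups of values examined, and chance flags about 1 in 20. Without this library the log2 fold change of Il1rl1 was -1.70 (adjusted p = 0.00122 in edgeR), against -1.41 with it.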

How the results depend on the processing

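Il1b, Il1r2 and Il1rap were lower in ICAM1high and past the threshold under all 21 alternatives each, at -1.88 to -0.87, -2.08 to -1.04 and -1.72 to -0.82 on the log2 scale, lowest in size under library totals. Il1a passed under library totals alone (1.28). Il1rn did not pass under library totals (-0.11) or in replicates 1 and 2 only (-0.51). Il1r1 passed with DESeq2 (-1.09) and without ICAM1high replicate 1 and ICAM1low replicate 4 together (-0.94). Il1rl1 did not pass with limma-voom (-1.22), library totals (-0.75), replicates 3 and 4 only (-1.02) or the replicate block (-1.29, adjusted p = 0.0752). The filter of 50 counts in 4 libraries left Il1rl1 untested. The cause of these changes was not tested. Leaving out 1 library at a time gave 0.34 to 0.81 for Il1a, -0.96 to -0.62 for Il1rn, -1.34 to -0.77 for Il1r1 and -1.70 to -1.27 for Il1rl1; for all genes it gave 4502 to 6287 calls. The calls numbered 5920 in all, 3124 in replicates 1 and 2 only and 3262 in replicates 3 and 4 only, which hold fewer samples, and 4238 with the replicate block, which changed no call among the other 6 genes. The 4 ratios kept their sign under all 11 alternatives each, and their differences with the block of same-numbered libraries were unchanged by construction (0.78, 2.16, -0.15 and -0.56), with a smallest possible p of 0.125. TMM gave 53.6% and library totals 89.0% of calls as higher in ICAM1high. Depth limits Il1r1 and Il1rl1, with 16 to 104 counts per library.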

Other observations

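Il1bos, a noncoding gene on the strand opposite Il1b whose exons overlap it, was also lower in ICAM1high, at 84.7 ± 13.3 CPM against 200 ± 77.9 CPM in ICAM1low (SD, n = 4), which is -1.24 on the log2 scale (SE 0.27, adjusted p = 0.00438 in edgeR). Its counts were 0.978% of those of Il1b, and without a known strand setting reads of the overlap cannot be given to either gene. Gm14023, which overlaps Il1a in the same way, held 1.70% as many counts as Il1a and was at 0.84 (SE 0.58, adjusted p = 0.265 in edgeR). Exons of Il1rap overlap those of Gm20319, with 0.122% as many counts. The other 4 genes share no exon with another annotated gene.

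Tumour epithelial keratins moved in the direction of Il1b: Krt8 was at -1.47 (adjusted p = 0.0003) and Krt18 at -1.41 (adjusted p = 0.000704, edgeR), both picked after their values were seen. Summed epithelial markers ran from 111 to 163 CPM in ICAM1high and from 258 to 459 CPM in ICAM1low, and their part in the results was not tested. Summed fibroblast markers, another cell type known for Il1r1, ran from 49.7 to 113 CPM in ICAM1high and from 32.4 to 55.7 CPM in ICAM1low, and endothelial markers from 38.0 to 51.8 CPM and from 22.1 to 53.1 CPM in the same fractions. The remaining marker lists summed to 7.39 to 14.9 CPM in ICAM1high and 4.40 to 9.90 CPM in ICAM1low for dendritic cells, 23.5 to 32.6 and 13.8 to 22.0 CPM for T and NK cells, 4.17 to 25.0 and 0.978 to 6.68 CPM for B cells, and 117 to 170 and 65.8 to 96.2 CPM for eosinophils, of which Siglecf made up most.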
